A study of Mus musculus with 10 samples.

Results

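Chromatin accessibility was compared at 7 genes of the iNKT17 programme, Rora, Il17a, Il17f, Il23r, Ccr6, Il1r1 and Sdc1, in iNKT1 and iNKT2 cells from the thymus of 2 mouse strains, BALB/c and SKG. A region of the deposited count table belonged to a gene when it overlapped the gene body or lay within 50 kb of the gene's transcription start on mm10, and 131 of the 94823 regions did so. Rora had 53 of them, Il1r1 25, Il23r 16, Ccr6 13, Il17a 11, Il17f 10 and Sdc1 8, and 5 regions between Il17a and Il17f counted for both. Once the genes were given, their positions alone chose the regions, and the genes had been proposed with earlier results of these data known. The count in a region is the number of cuts made there by the transposase of the ATAC-seq assay, which inserts where DNA is open.

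There were 4 groups, with 2 libraries each of iNKT1 cells from BALB/c and from SKG mice and 3 libraries each of iNKT2 cells from both. Every library came from untreated mice of the BALB/c background. BALB/c mice carry normal Zap70, the kinase that passes on T cell receptor signals, and SKG mice carry a hypomorphic Zap70 allele in all their cells. According to the study's methods, iNKT1 cells were sorted as CD27+ CD122+ and iNKT2 cells as CD27+ CD122-, and iNKT17 cells were not assayed because few were recovered from SKG mice. The mice were young adults by the age range in weeks that the methods give, and the methods state that they were matched for age in each experiment. The labels do not say whether libraries of a group came from separate mice, so the p-values measure the spread between libraries, which may be technical. In sorted populations, fewer cells of a type and less open chromatin per cell cannot be told apart.

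iNKT17 cells are the subset of invariant natural killer T cells that makes interleukin-17, as opposed to the interferon-producing iNKT1 and the interleukin-4-producing iNKT2 cells. Rora encodes a nuclear receptor of the ROR family that takes part in the type 17 programme. Il17a and Il17f encode its cytokines. The receptors Il23r and Il1r1 receive the interleukin-23 and interleukin-1 signals that sustain or trigger it, Ccr6 is the receptor for the chemokine CCL20, and Sdc1 encodes syndecan-1, a surface proteoglycan used to recognise iNKT17 cells. The comparison asks whether chromatin of this type is open in cells sorted as iNKT1 or iNKT2, and whether weaker Zap70 signalling alters it.

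Insertions in all regions totalled 14988590 to 36342635 per library. Levels are CPM, insertions in a region per 1e6 insertions of the library (scaled by TMM factors), and the floor of a library is its CPM per kb at percentile 5 of all regions. Floors were 0.214 to 0.364 in the 4 iNKT1 libraries, 1.41 to 1.92 in BALB/c iNKT2 and 0.612 to 1.01 in SKG iNKT2, so the floors were higher in iNKT2, and highest in BALB/c iNKT2. Counts of calls are also given after subtraction of the floors. The part of the floors in the results was not tested beyond that. The sorted cells were checked at the start regions of marker genes. Summed over the 5 of 6 iNKT1 markers with such a region, the level was 266 to 271 CPM in BALB/c iNKT1 and 292 to 302 CPM in SKG iNKT1, against 64.3 to 82.6 CPM and 71.2 to 102 CPM in the 2 iNKT2 groups, and the 6 iNKT2 markers summed to 81.8 to 92.3 CPM in iNKT1 and 99.7 to 171 CPM in iNKT2. That second sum rests on Il17rb and Il6ra (log2 changes of 1.08 and 1.09 in BALB/c and of 1.44 and 1.07 in SKG) and on Ccr7 (0.46, adjusted p 0.049, and 1.46, adjusted p 2.3e-05). The defining iNKT2 genes Zbtb16, Gata3 and Il4 did not pass in BALB/c, where their log2 changes were -0.36, -0.27 and -0.63, and in SKG Zbtb16 and Gata3 changed by 0.08 and 0.27 without passing while Il4 was lower in iNKT2 (-1.49, edgeR adjusted p 0.0063). None of the 5 markers of CD4 CD8 double-positive thymocytes, the 5 of B and plasma cells or the 3 of thymic epithelium had a region at its start, and 1 of 4 myeloid markers did (Itgam, 0 to 0.951 CPM in iNKT2 and 1.22 to 3.91 CPM in iNKT1). Of the gamma delta T cell markers, Trdc had none, while Sox13 and Blk, which iNKT17 cells also use, summed to 0.192 to 0.806 CPM in iNKT1, 7.2 to 7.59 CPM in BALB/c iNKT2 and 3.3 to 4.09 CPM in SKG iNKT2.

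The sequences below are those on which the results turn, read from the RefSeq genome of the same build (GRCm38.p6, the C57BL/6J reference, so BALB/c differences are not shown). The first 4 are promoters, from 250 bases before to 20 bases after the RefSeq start and read on the gene's strand, because these genes opened at their starts. The other 4 are the central 300 bases of distal regions, on the plus strand: the most open Il17a element, an Il23r intron element, and a Rora intron element that was higher in iNKT2 beside 1 that was lower. Capitals mark matches, on either strand, to TAGGTCA or TGGGTCA (the core of a ROR element), GGAAAA (NFAT), GTGGGNG (Egr), GGTGTGA (T-box) and TGTGGT (Runx).
Il17a promoter, chr1:20730655-20730924, plus strand: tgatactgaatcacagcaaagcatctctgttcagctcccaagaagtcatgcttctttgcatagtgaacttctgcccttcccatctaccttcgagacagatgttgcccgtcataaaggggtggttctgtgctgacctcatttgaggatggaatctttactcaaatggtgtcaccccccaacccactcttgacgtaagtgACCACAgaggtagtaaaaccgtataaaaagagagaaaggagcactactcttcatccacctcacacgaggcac
Il23r promoter, chr6:67491836-67492105, minus strand: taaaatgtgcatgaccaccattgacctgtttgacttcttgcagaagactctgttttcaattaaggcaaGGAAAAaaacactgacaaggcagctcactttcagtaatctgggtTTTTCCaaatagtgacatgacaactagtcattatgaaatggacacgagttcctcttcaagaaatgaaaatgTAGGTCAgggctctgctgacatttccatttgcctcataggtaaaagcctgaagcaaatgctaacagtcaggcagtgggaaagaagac
Ccr6 promoter, chr17:8235793-8236062, plus strand: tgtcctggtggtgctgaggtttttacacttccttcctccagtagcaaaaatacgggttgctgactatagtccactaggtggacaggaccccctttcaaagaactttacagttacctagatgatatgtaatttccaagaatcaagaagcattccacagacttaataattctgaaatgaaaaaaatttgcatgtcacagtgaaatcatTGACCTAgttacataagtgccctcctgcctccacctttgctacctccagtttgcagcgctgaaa
Il1r1 promoter, chr1:40224830-40225099, plus strand: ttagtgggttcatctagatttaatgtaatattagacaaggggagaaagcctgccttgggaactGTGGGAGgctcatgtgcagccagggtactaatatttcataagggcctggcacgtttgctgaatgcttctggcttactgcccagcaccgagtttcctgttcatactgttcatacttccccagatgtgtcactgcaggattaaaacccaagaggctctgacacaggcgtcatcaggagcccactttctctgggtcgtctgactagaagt
Il17a downstream element, chr1:20740534-20740833: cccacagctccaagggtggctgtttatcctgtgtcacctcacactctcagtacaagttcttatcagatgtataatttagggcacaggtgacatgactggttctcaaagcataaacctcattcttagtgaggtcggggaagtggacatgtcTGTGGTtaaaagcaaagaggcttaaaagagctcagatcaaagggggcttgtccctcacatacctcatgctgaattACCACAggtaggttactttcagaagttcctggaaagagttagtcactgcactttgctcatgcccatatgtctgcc
Il23r intron element, chr6:67483111-67483410: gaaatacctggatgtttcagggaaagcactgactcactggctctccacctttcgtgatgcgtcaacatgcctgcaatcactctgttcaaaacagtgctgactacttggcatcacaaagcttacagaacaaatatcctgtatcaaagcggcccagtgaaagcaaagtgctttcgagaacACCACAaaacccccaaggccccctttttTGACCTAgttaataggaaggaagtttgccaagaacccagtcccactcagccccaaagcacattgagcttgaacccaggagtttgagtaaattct
Rora intron element, higher in iNKT2, chr9:69227250-69227549: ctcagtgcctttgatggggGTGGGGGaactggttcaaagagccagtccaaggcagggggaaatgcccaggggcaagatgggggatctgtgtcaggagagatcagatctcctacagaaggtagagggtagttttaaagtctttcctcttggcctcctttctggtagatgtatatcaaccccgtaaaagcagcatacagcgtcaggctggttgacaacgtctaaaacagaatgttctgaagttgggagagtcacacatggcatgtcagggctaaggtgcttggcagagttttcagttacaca
Rora intron element, lower in iNKT2, chr9:69362111-69362410: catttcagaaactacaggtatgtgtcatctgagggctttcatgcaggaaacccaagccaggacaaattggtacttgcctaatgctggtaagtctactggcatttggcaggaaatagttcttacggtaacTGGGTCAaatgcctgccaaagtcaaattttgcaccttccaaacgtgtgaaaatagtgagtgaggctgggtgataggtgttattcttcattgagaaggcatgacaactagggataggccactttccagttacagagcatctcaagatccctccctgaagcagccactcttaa
The Il23r promoter held 1 ROR core, here TAGGTCA, and 2 NFAT strings, and the Ccr6 promoter held 1 ROR core, TGACCTA, on the minus strand. The Il1r1 promoter held 1 Egr string and the Il17a promoter 1 Runx string. In promoters of this length, 5.85% of all 32851 RefSeq entries held a ROR core, 21.6% NFAT, 29.7% Egr, 3.61% T-box and 15.1% Runx. A match is a description of letters and not of binding.

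At most of these regions iNKT2 libraries were more open than iNKT1 libraries, in both genotypes. A region was called when edgeR's quasi-likelihood test gave an adjusted p under 0.01 over all 94823 regions and the estimated change was at least 4-fold. In BALB/c, 69 of 131 regions (52.7%) were called higher in iNKT2, against 15.5% of all regions, and 4 (3.05%) were called lower, against 6.36%. In SKG, 61 (46.6%) were higher, against 10.2%, and 5 (3.82%) were lower, against 6.96%. The 2 groups did not overlap in 111 of the 131 regions in BALB/c and in 116 in SKG. These are larger shares than the 75.7% and 67.1% of all regions. The median log2 change was 2.28 in BALB/c and 1.89 in SKG, beside 0.06 and 0.14 over all regions. Both genotypes called 57 regions higher and 4 lower, 12 were higher in BALB/c alone, 4 were higher in SKG alone, and none was called in opposite directions (whether the genotypes differed is tested further on).

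Levels in iNKT1 were low. In BALB/c iNKT1 the 131 regions had a median level of 0.438 CPM and a median percentile of 13.9 among all regions, and 5 held no insertion in either library. In SKG iNKT1 the median was 0.899 CPM, at percentile 26.3, with 10 regions at 0. In BALB/c and SKG iNKT2 the medians were 3.01 and 3.37 CPM, at percentiles 51.3 and 54.7, and no region was at 0. After subtraction of the floors, 64 regions stayed called higher in BALB/c, all of them among the 69, against 13.3% of all regions. In SKG 57 were called higher, 55 of them among the 61, against 8.47% of all regions. Lower calls stayed at 4 in BALB/c and 5 in SKG, against 8.64% and 7.61% of all regions. Quantile normalization, which gives all libraries one distribution, left 46 higher in BALB/c and 34 in SKG, while the regions called higher fell to 9.27% and 4.07% of all regions. Without the regions lowest in mean count, 46 and 39 were called higher, beside 11.1% and 9.48% of the 71183 regions kept.

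**Figure D1:**
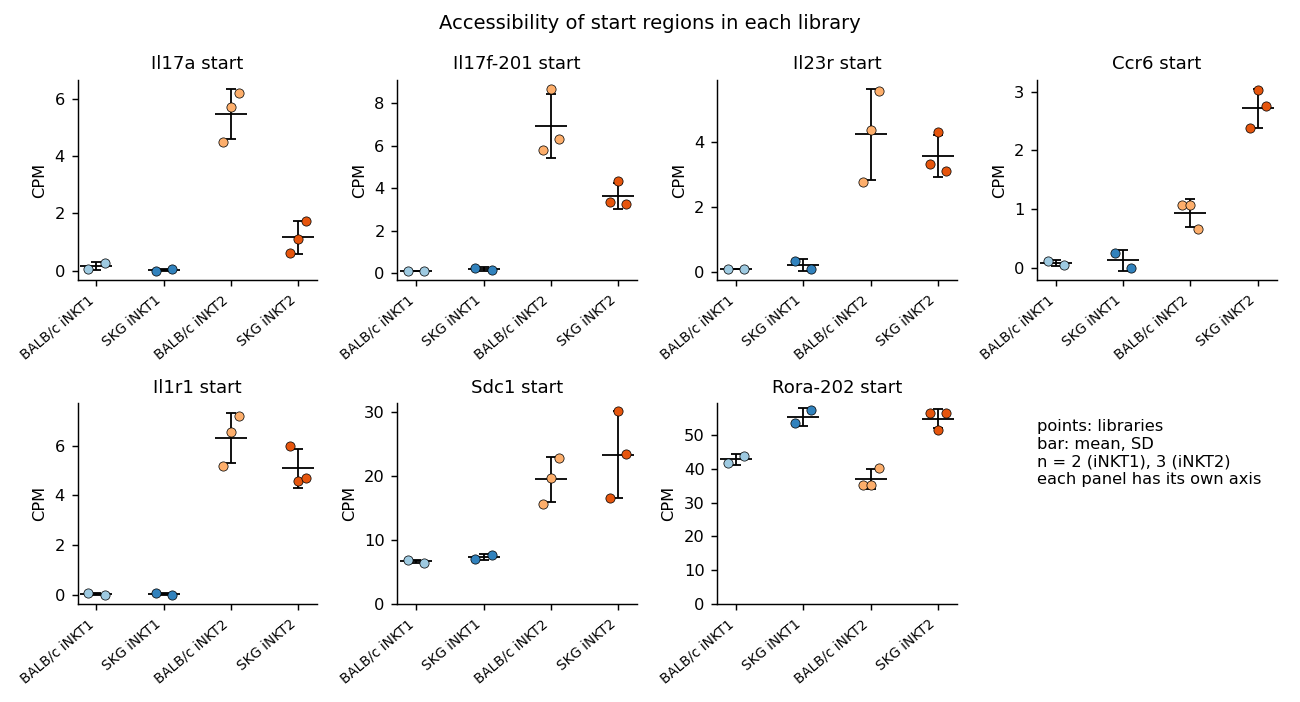
Accessibility (CPM, linear axis, each panel with its own scale) of the regions that cover the start of a member gene or transcript, 1 point per library, with bars for the mean and SD of each group (n = 2 for iNKT1, n = 3 for iNKT2). The Il17a, Il23r, Ccr6 and Il1r1 starts lie at or under 0.321 CPM in every iNKT1 library, Sdc1 and Rora-202 are open in all 4 groups, and the Il17a start stands lower in SKG iNKT2 than in BALB/c iNKT2.

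**Figure D2:**
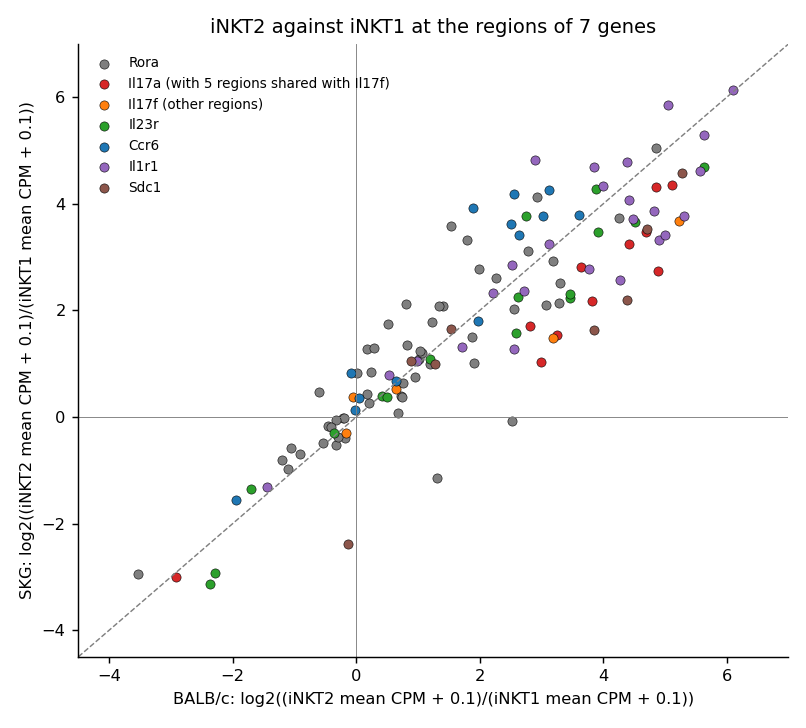
Log2 ratio of iNKT2 to iNKT1 mean accessibility (CPM + 0.1) for each of the 131 regions, BALB/c on the horizontal and SKG on the vertical axis, coloured by gene, with a dashed line where both genotypes are equal. Of the 131 points, 102 are above 0 on both axes.

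The cytokine genes Il17a and Il17f, which lie side by side on chromosome 1, were less open in iNKT1 than in iNKT2 at most of their regions. At the Il17a start (chr1:20730551-20730951) the 2 BALB/c iNKT1 libraries had 0.0597 and 0.264 CPM and the 2 SKG iNKT1 libraries 0 and 0.0642 CPM. The 3 BALB/c iNKT2 libraries had 4.49, 5.71 and 6.18 CPM, and the 3 SKG iNKT2 libraries 0.624, 1.1 and 1.75 CPM. Each iNKT2 library was above each iNKT1 library, and SKG iNKT2 lay between BALB/c iNKT2 and iNKT1 without overlapping either. In BALB/c the log2 change from iNKT1 to iNKT2 was 5.18 ± 0.538 (SE; edgeR adjusted p 1e-06). In SKG, where iNKT1 held a single insertion, iNKT2 was 31.5 times higher (95% counting interval 5.47 to 1260; adjusted p 0.00053). The intron region of Il17a behind it (chr1:20731065-20731364) held no insertion in any iNKT1 library, 2.1, 4.05 and 2.43 CPM in BALB/c iNKT2 and 0.505, 0.321 and 0.877 CPM in SKG iNKT2, which is at least 55.6-fold and at least 5.47-fold higher with 3 insertions over the group set as the least detectable level.

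The most open of the Il17a regions lay 9523 bp downstream of the start (chr1:20740428-20740939, intergenic, the downstream element printed above with 2 Runx strings). It had 2.96 and 2.12 CPM in BALB/c iNKT1, 2.51 and 2.63 CPM in SKG iNKT1, 31.7, 32.7 and 34.2 CPM in BALB/c iNKT2 and 14.9, 19.7 and 21.8 CPM in SKG iNKT2. It had the highest mean of the Il17a regions in each of the 4 groups, and it reached percentile 96 of all regions in BALB/c iNKT2 and 87.3 in SKG iNKT2. Its log2 change was 3.67 ± 0.215 in BALB/c (edgeR adjusted p 7.6e-09) and 2.86 ± 0.224 in SKG (1e-07). Of the 11 Il17a regions, 10 were higher in BALB/c iNKT2 and 1 lower, and 7 and 1 in SKG. Summed over them, the level was 5.2 to 6.69 CPM in BALB/c iNKT1, 7.77 to 8.4 in SKG iNKT1, 66.4 to 71.3 in BALB/c iNKT2 and 30 to 46.6 in SKG iNKT2.

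Il17f followed at its own start. No region covered the annotated gene start, but chr1:20784134-20784600 covered the start of transcript Il17f-201, 6017 bp inside the gene. It had 0.0896 and 0.0882 CPM in BALB/c iNKT1, 0.257 and 0.128 CPM in SKG iNKT1, 5.8, 8.68 and 6.31 CPM in BALB/c iNKT2 and 3.33, 4.32 and 3.24 CPM in SKG iNKT2. The log2 changes were 6.21 ± 0.416 in BALB/c and 4.2 ± 0.431 in SKG (adjusted p 2.1e-08 and 1.3e-06). Counts for Il17f were 6 higher and 1 lower of 10 regions in BALB/c, and 3 and 1 in SKG. The region called lower, at chr1:20766639-20766942 between both genes, fell from 2.09 ± 0.464 CPM to 0.19 ± 0.107 CPM in BALB/c (log2 change -3.42 ± 0.462, adjusted p 1.3e-05) and from 1.64 ± 0.225 CPM to 0.118 ± 0.0441 CPM in SKG. The 3 regions upstream of Il17f whose nearest start is that of Mcm3, a replication gene used by dividing cells, were not called, and group means at 2 of them were 11.5 to 61.4 CPM.

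**Figure D3:**
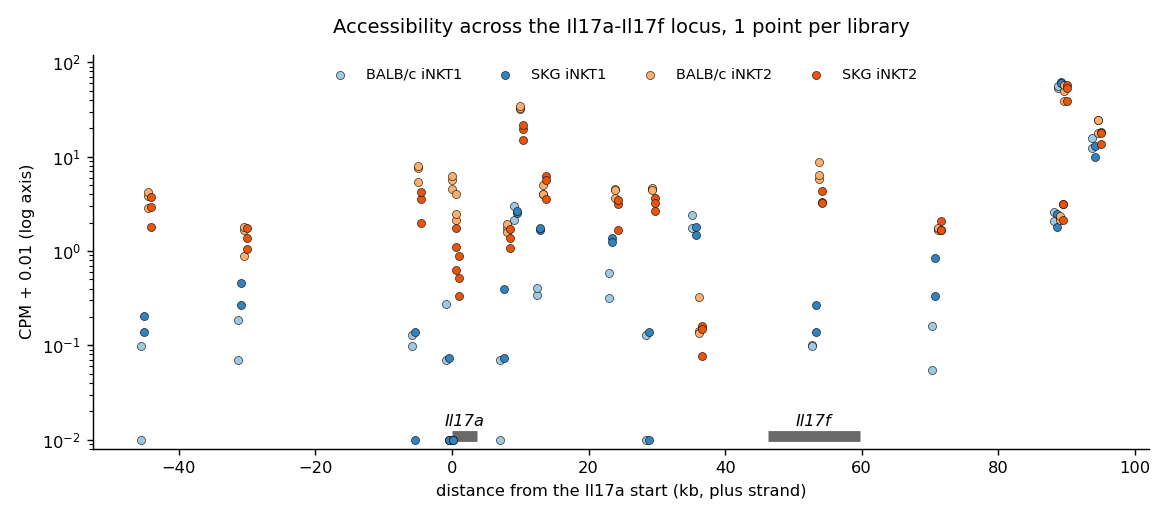
Accessibility (CPM + 0.01, log axis) of the Il17a and Il17f regions, 1 point per library coloured by group, against distance from the Il17a start in kb, with grey bars for both genes. The element 9523 bp downstream has the highest mean of the Il17a regions in all 4 groups, and the SKG iNKT2 points at the Il17a start lie under those of BALB/c iNKT2.

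Il1r1 had the largest share of regions called higher among the receptor genes in both genotypes. Of its 25 regions, 21 were called higher in BALB/c iNKT2 and 20 in SKG iNKT2, none was called lower in either, and all 25 had groups that did not overlap in both genotypes, which is also so of 75.7% and 67.1% of all regions in the 2 comparisons. At the Il1r1 start (chr1:40224849-40225223) the iNKT1 libraries held 0.0597 and 0 CPM in BALB/c and 0.0642 and 0 CPM in SKG, while BALB/c iNKT2 had 5.21, 6.56 and 7.21 CPM and SKG iNKT2 6, 4.59 and 4.72 CPM. The 2 iNKT2 groups overlapped here, and both stood far from iNKT1. With 2 and 1 insertions in the iNKT1 groups, the ratios were 176 (95% counting interval 48.5 to 1460) in BALB/c and 165 (29.4 to 6530) in SKG, with edgeR adjusted p of 2.8e-08 and 2e-07. An intron region 37369 bp downstream (chr1:40262449-40263119) had the smallest adjusted p of the gene. It went from 0.358 and 0.397 CPM to 10.7, 10.2 and 8.99 CPM in BALB/c (log2 change 4.71 ± 0.264, adjusted p 5.6e-09) and from 0.193 and 0.128 CPM to 7.25, 7.03 and 6.94 CPM in SKG (5.42 ± 0.343, 1.9e-08). Its most open region (chr1:40270957-40271579, intron) was already open in iNKT1, at 25.7 and 20.1 CPM, and reached 37.8, 31.5 and 30.1 CPM in BALB/c iNKT2, a log2 change of 0.53 ± 0.158 (adjusted p 0.0085) that is under 4-fold.

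At Il23r, 9 of 16 regions were higher in BALB/c iNKT2 and 7 in SKG iNKT2, and 2 were lower in each. The start (chr6:67491714-67492072), whose promoter is printed above with its ROR core, had 0.0896 and 0.0882 CPM in BALB/c iNKT1, 0.321 and 0.0642 CPM in SKG iNKT1, 2.76, 4.39 and 5.57 CPM in BALB/c iNKT2 and 3.33, 4.32 and 3.1 CPM in SKG iNKT2. Both iNKT2 groups were above both iNKT1 groups, and they overlapped with each other. The log2 change was 5.49 ± 0.523 in BALB/c (adjusted p 4.4e-07) and 4.19 ± 0.528 in SKG (9.6e-06). The intron element 8353 bp downstream (chr6:67483018-67483502), which also holds a ROR core, rose from 0.0597 and 0.132 CPM to 9.16, 10.2 and 9.61 CPM in BALB/c (6.68 ± 0.399, adjusted p 8.8e-09) and from 0.193 and 0.192 CPM to 5.38, 8.68 and 8.43 CPM in SKG (5.23 ± 0.402, 8.3e-08). The 2 lower regions were introns 54956 and 66678 bp downstream of the start. The farther one (chr6:67424844-67425177), whose nearest start is that of Il12rb2, a chain of the interleukin-12 receptor, fell from 9.16 ± 1.11 CPM to 1.8 ± 0.442 CPM in BALB/c (log2 change -2.33 ± 0.247) and from 10.5 ± 1.49 CPM to 1.29 ± 0.379 CPM in SKG (-3.04 ± 0.269).

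The Ccr6 start was weakly open in BALB/c iNKT2 and more open in SKG iNKT2. There (chr17:8235920-8236261) BALB/c iNKT1 had 0.119 and 0.0441 CPM, SKG iNKT1 0.257 and 0 CPM, BALB/c iNKT2 1.07, 1.08 and 0.66 CPM and SKG iNKT2 2.38, 3.03 and 2.76 CPM. In BALB/c iNKT2 this was percentile 9.57 of all regions, and in SKG iNKT2 percentile 51.5. The log2 change from iNKT1 was 3.36 ± 0.644 in BALB/c (adjusted p 0.00033) and 4.35 ± 0.649 in SKG (4.9e-05), and the first was not called after quantile normalization (1.67, adjusted p 0.078). Of the 13 Ccr6 regions 8 were higher in BALB/c and 7 in SKG, and none was called lower. After subtraction of the floors 6 of the 8 stayed called higher in BALB/c. The called region 10594 bp upstream of the start stood at percentile 3.18 of all regions in BALB/c iNKT2. A region in the UTR of Ccr6, 15632 bp downstream (chr17:8251675-8252121), went the other way, with 30.2 and 28.3 CPM in BALB/c iNKT1, 29.3 and 35.5 CPM in SKG iNKT1, 9.5, 6.14 and 6.93 CPM in BALB/c iNKT2 and 10.5, 12.8 and 9.64 CPM in SKG iNKT2. Its log2 changes of -1.96 ± 0.187 and -1.56 ± 0.189 (adjusted p 4.7e-07 and 6.2e-06) stayed under 4-fold. Summed over the 13 regions, which include some in the neighbouring gene Mpc1, BALB/c iNKT1 had 150 to 160 CPM and BALB/c iNKT2 123 to 155. With library totals these were 138 to 147 and 146 to 168 CPM. In SKG the sums were 156 to 160 CPM in iNKT1 and 137 to 194 CPM in iNKT2.

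Sdc1 was open at its start in all groups. The start region (chr12:8771033-8771855) had 6.84 and 6.48 CPM in BALB/c iNKT1, 7.07 and 7.63 CPM in SKG iNKT1, 15.7, 19.8 and 22.8 CPM in BALB/c iNKT2 and 16.6, 30.2 and 23.5 CPM in SKG iNKT2. The subsets did not overlap, with log2 changes of 1.54 ± 0.234 and 1.67 ± 0.242 (adjusted p 4e-05 and 3.8e-05), under 4-fold. Of its 8 regions 4 were called higher in BALB/c, and 3 higher and 1 lower in SKG. The region of smallest adjusted p, 46397 bp downstream (chr12:8817720-8818058, intergenic), had 0.179 and 0.22 CPM in BALB/c iNKT1 and 5.55, 6.96 and 6.02 CPM in BALB/c iNKT2 (4.94 ± 0.326, adjusted p 1.9e-08), against 0.514 and 0.513 CPM and 2.47, 2.85 and 2.83 CPM in SKG (2.38 ± 0.322, 1.9e-05).

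Rora, the transcription factor gene, had regions that were open in both subsets beside regions that changed. It is a long gene, no region covered its annotated start, and only 6 of its 53 regions have the Rora start as their nearest protein-coding start, the others being nearer to the start of Ice2, a neighbouring gene. In BALB/c 15 regions were called higher in iNKT2 and 1 lower, and in SKG 16 and 1. Median log2 changes were 0.84 and 1.02. Summed over the 53 regions, the level was 356 to 359 CPM in BALB/c iNKT1 and 309 to 328 CPM in BALB/c iNKT2. With library totals this order turned, as given further on. In SKG the sums were 423 to 473 CPM in iNKT1 and 453 to 531 CPM in iNKT2. The region at the start of the internal transcript Rora-202 (chr9:69289429-69290010) had 41.7 and 43.9 CPM in BALB/c iNKT1, 53.5 and 57.3 CPM in SKG iNKT1, 35.1, 35.3 and 40.2 CPM in BALB/c iNKT2 and 56.5, 51.5 and 56.4 CPM in SKG iNKT2. The subsets differed there by -0.21 ± 0.124 in BALB/c (adjusted p 0.14) and -0.01 ± 0.125 in SKG (0.93). The most open Rora region (chr9:69033964-69034941, intron) was higher in iNKT1, with 110 and 106 CPM against 58.5, 49.1 and 47.8 CPM in BALB/c (log2 change -1.06 ± 0.132, adjusted p 5.9e-06) and 105 and 125 CPM against 78.1, 80.7 and 70.3 CPM in SKG (-0.59 ± 0.133, 0.0017).

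Other Rora introns held elements with large changes. The element printed above as higher in iNKT2 (chr9:69227178-69227620) had 0.149 and 0.0882 CPM in BALB/c iNKT1, 0.321 and 0.0642 CPM in SKG iNKT1, 5.08, 7.49 and 6.1 CPM in BALB/c iNKT2 and 11.4, 7.35 and 9.84 CPM in SKG iNKT2, a log2 change of 5.6 ± 0.434 in BALB/c (adjusted p 6.9e-08) and 5.6 ± 0.448 in SKG (1.2e-07). Its neighbour at chr9:69226597-69227076 changed by 4.97 ± 0.447 and 4.1 ± 0.446 (2.6e-07 and 2.2e-06). Among the 5 called regions of largest rise in BALB/c were also chr9:69229348-69229650, chr9:69110764-69111110 and chr9:68888781-68889080, and the first and last of these held 2 and 3 insertions in BALB/c iNKT1 and were 31.4 (8.48 to 263) and 19.3 (6.42 to 95.4) times higher in iNKT2, and neither was called after quantile normalization (adjusted p 0.014 and 0.013). The element printed as lower (chr9:69362037-69362484), an intron region that also lies in the antisense gene Gm15511, had 13.5 and 11.2 CPM in BALB/c iNKT1, 8.8 and 6.42 CPM in SKG iNKT1, 1.32, 0.741 and 0.866 CPM in BALB/c iNKT2 and 0.891, 0.597 and 1.21 CPM in SKG iNKT2. It was open in every iNKT1 library and lower in every iNKT2 library, with log2 changes of -3.66 ± 0.276 and -3.11 ± 0.3 (adjusted p 5.3e-08 and 7e-07).

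**Figure D4:**
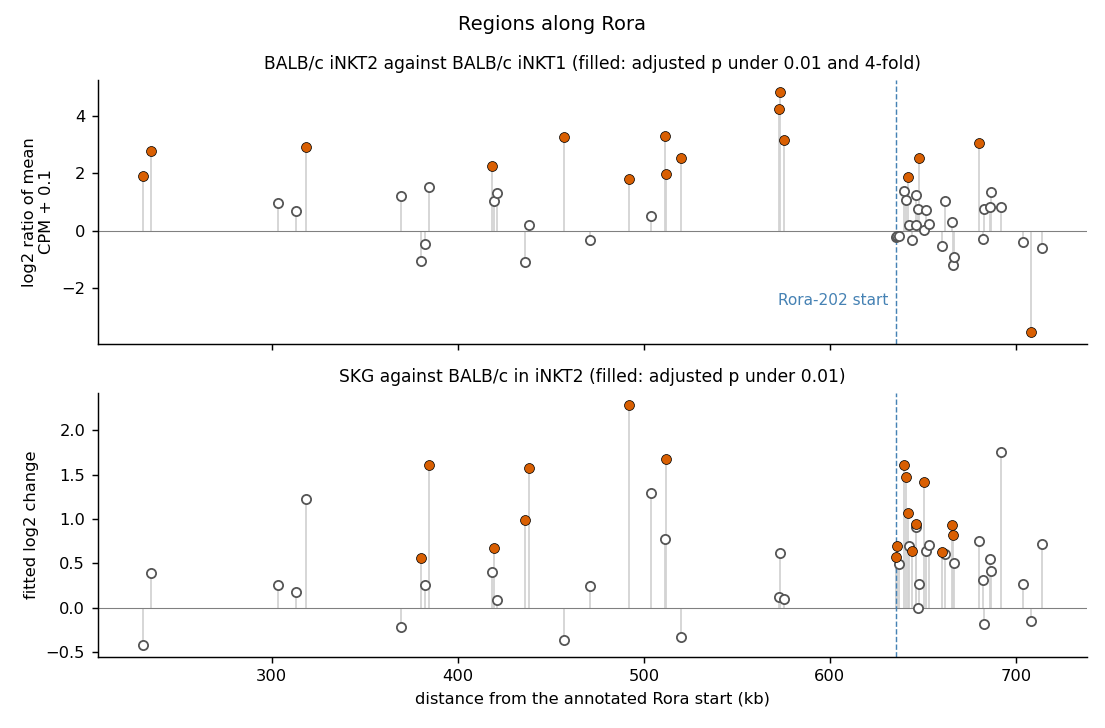
The 53 Rora regions by distance in kb from the annotated start, with the Rora-202 start as a dashed line. The upper panel gives the log2 ratio of mean CPM + 0.1 of BALB/c iNKT2 to BALB/c iNKT1 (15 filled points above 0 and 1 below are called), and the lower panel gives the fitted log2 change from BALB/c to SKG in iNKT2 (the 18 filled points pass the adjusted p of 0.01, all above 0).

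Between genotypes, few of these regions passed both thresholds. In iNKT2 cells 1 of 131 was called higher in SKG (0.763%, against 0.252% of all regions) and 2 lower (1.53%, against 4.73%). By the adjusted p alone, 22 of the 131 were higher, a larger share than the 4.02% of all regions. Lower by it were 11 of the 131, a smaller share than the 10.1% of all regions. The median log2 change was 0.09, beside 0.01 over all regions, and the genes moved in different directions. Rora was above 0 at 46 of 53 regions (median 0.62) and Ccr6 at 12 of 13 (0.74). Il17a was below 0 at 10 of 11 regions (-0.58), Il23r at 15 of 16 (-0.35), Il1r1 at 22 of 25 (-0.46) and Il17f at 6 of 10 (-0.47). Sdc1 had 5 above and 3 below, with a median of 0.08. These directions of the medians were the same with library totals, DESeq2, voom with and without quantile normalization and floor subtraction, except for Sdc1 (-0.06 with library totals). By the adjusted p alone, 18 Rora and 3 Ccr6 regions were higher and none lower in SKG, while 4 Il17a and 2 Il17f regions, of which 1 is shared, were lower and none higher. At Il1r1 1 was higher and 5 lower, at Sdc1 1 was lower, and at Il23r none passed.

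**Figure D5:**
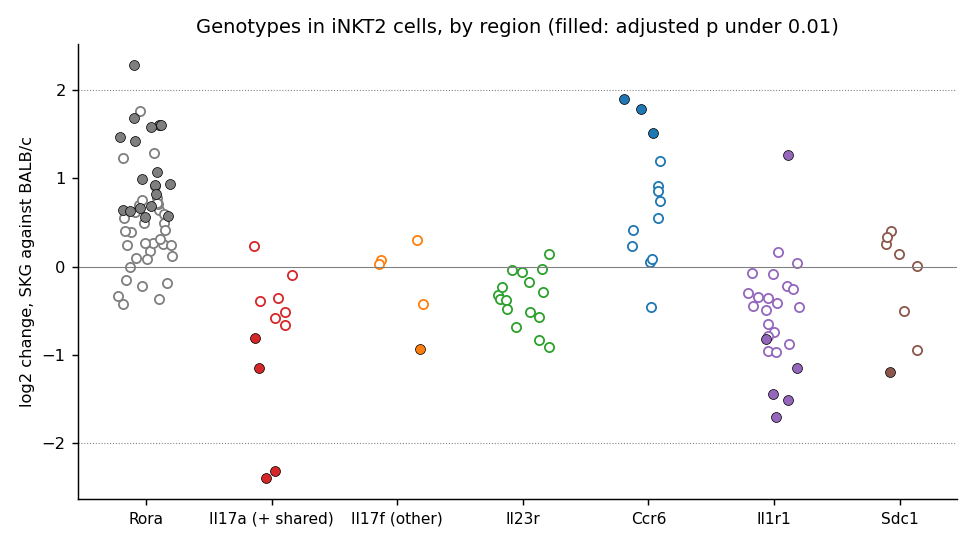
Fitted log2 change from BALB/c to SKG in iNKT2 cells, 1 point per region and 1 column per gene, the 5 shared regions with Il17a. Filled points pass the adjusted p of 0.01 and dotted lines mark 4-fold. Filled Rora and Ccr6 points are all above 0, filled Il17a points all below 0.

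Lower in SKG iNKT2, by both thresholds, were the Il17a start and the intron interval behind it, with the values given above. The log2 changes were -2.32 ± 0.352 (edgeR adjusted p 0.00021) and -2.4 ± 0.417 (0.00095), and the start went from percentile 66.6 to percentile 19.5 of all regions. Without SKG iNKT2 replicate 1, the library lowest at the start, the start changed by -1.96 (adjusted p 0.0004) and fell under 4-fold. After subtraction of the floors its log2 change was -2.8 (adjusted p 0.0037). The element 9523 bp downstream changed less, by -0.81 ± 0.157 (adjusted p 0.0015), and the Il17f-201 start by -0.93 ± 0.219 (0.0055). The start regions of Sox13 and Blk, the gamma delta T cell markers, summed to 7.45 ± 0.218 CPM in BALB/c iNKT2 and 3.61 ± 0.421 CPM in SKG iNKT2 (adjusted p 0.017 for Sox13 and 0.052 for Blk), Trdc had no start region, and their part in this result was not tested. The starts of Il23r and Il1r1 changed by -0.23 ± 0.278 and -0.3 ± 0.227 (adjusted p 0.58 and 0.37), so that a lower level in SKG iNKT2 was not shown at either.

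In the other direction, the Rora intron region chr9:69145603-69145912 was called higher in SKG iNKT2. It had 0.502, 0.344 and 0.289 CPM in BALB/c iNKT2 and 2.62, 1.01 and 1.96 CPM in SKG iNKT2, a log2 change of 2.29 ± 0.489 (adjusted p 0.003). The BALB/c levels are under the floor of those libraries, and the call was lost in the fits without BALB/c iNKT2 replicate 2 or 3 or SKG iNKT2 replicate 3. The Rora region of smallest adjusted p (chr9:69304247-69305200, intron) went from 10.2, 14.7 and 13.1 CPM to 31.6, 36.5 and 33.9 CPM (1.42 ± 0.152, adjusted p 9.2e-06), without overlap, and the Rora-202 start went up by 0.57 ± 0.111 (0.0015). The Ccr6 start had a log2 change of 1.51 ± 0.37 (0.0072) and a region 21667 bp upstream of it (chr17:8214077-8214376) 1.9 ± 0.377 (0.0018), from 0.627, 0.529 and 0.701 CPM to 1.96, 2.66 and 2.29 CPM. After subtraction of the floors, which were higher in BALB/c iNKT2, 7 regions were called higher, 5 of Rora and 2 of Ccr6, and 2 lower. Over all regions that subtraction moved the higher calls from 239 to 1179 and the lower calls from 4488 to 4029. At Il1r1 the region of smallest adjusted p (chr1:40279083-40279676, intron) has the start of the neighbouring gene Il1rl2 as its nearest start. It went down from 7.4, 13.4 and 8.29 CPM to 2.82, 3.77 and 3.78 CPM (-1.51 ± 0.24, 0.00032). At Sdc1 the region 46397 bp downstream changed by -1.19 ± 0.2 (0.00048). For Il23r it was an intron region 18746 bp downstream (chr6:67472795-67473109), with -0.83 ± 0.289 (0.045).

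In iNKT1 cells, 4 of the 131 regions were called higher in SKG (3.05%, against 0.281% of all regions) and none lower (0%, against 0.732%). An unadjusted p under 0.05 was found at 31 of the 131, a larger share than the 17.1% of all regions. Both Rora regions lay in introns. At chr9:69074872-69075184 BALB/c iNKT1 had 0.508 and 0.22 CPM and SKG iNKT1 2.7 and 2.5 CPM (log2 change 2.76 ± 0.458, adjusted p 0.0021), and at chr9:69173828-69174448 they had 1.05 and 0.617 CPM and 4.05 and 4.62 CPM (2.34 ± 0.407, 0.003). Between Il17a and Il17f, chr1:20743725-20744212 had 0.329 and 0.397 CPM and 1.67 and 1.73 CPM (2.23 ± 0.406, 0.0041). In Sdc1, the intron region chr12:8787053-8787383 had 0.508 and 0.529 CPM and 3.28 and 3.78 CPM (2.76 ± 0.53, 0.006). Each of the 4 calls was lost when any one of the 4 iNKT1 libraries was left out. Such a fit leaves a group with a single library, and it also made fewer higher calls over all regions. After subtraction of the floors 1 call remained. Over all regions that subtraction moved the higher calls from 266 to 176. The starts of Il17a, Il23r, Ccr6 and Il1r1 stayed at or under 0.321 CPM in all iNKT1 libraries of both genotypes.

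The genotype change in iNKT2 was then set against that in iNKT1. No region was called higher (0%, against 0.189% of all regions), and 2 were lower (1.53%, against 0.341%), namely the Rora intron region chr9:69173828-69174448 (log2 difference -2.66 ± 0.492, adjusted p 0.0084) and chr12:8761198-8761539, 9784 bp upstream of Sdc1 (-2.24 ± 0.385, 0.0053). An unadjusted p under 0.05 was found at 25 of the 131 regions, a share near the 19.8% of all regions. After subtraction of the floors neither region was called (adjusted p 0.019 and 0.013), and another Sdc1 region was. For the Il17a start the difference was -0.3 (edgeR adjusted p 0.98). Neither its size nor its sign can be placed, since SKG iNKT1 held 1 insertion.

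Motif strings were counted in the central 300 bases of each region. A ROR core was found in 6.95% of all regions, in 10.1% of the 14725 regions called higher in BALB/c iNKT2, in 16% of the 131 regions (21) and in 21.7% of the 69 called higher (15). Of these 15, Il1r1 had 6, Il23r 4, Ccr6 3, Rora 1 and the stretch between Il17a and Il17f 1. For NFAT the shares were 21.9%, 25.7%, 25.2% and 29%, and for Egr 28.7%, 28.6%, 29.8% and 36.2%. In the central 200 bases the Egr string was in 21.4% of all regions and 23.2% of the 69, and the ROR core in 4.72% and 14.5%. Of the 62 member regions not called higher, 6 (9.68%) held a ROR core, in the 300 as in the 200 bases. The Rora element printed as lower in iNKT2 holds a ROR core, and the Rora element printed as higher holds none. The T-box string was in 5.48% of all regions and 4.35% of the 69, but in 15.7% of all regions called lower in BALB/c iNKT2, and the Runx string was in 30.3%, 31.9% and 52.5%. Regions of a gene are not independent, so these shares are given without a test.

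Other genes of the type 17 programme, 19 in number, had 273 regions by the same rule. In BALB/c 50 (18.3%) were called higher in iNKT2, against 15.5% of all regions, and 8 (2.93%) lower, against 6.36%. In SKG 40 (14.7%) were higher, against 10.2%, and 9 (3.3%) lower, against 6.96%. The median log2 changes were 0.32 and 0.66. Blk had 9 of 14 regions higher in BALB/c and 8 in SKG. Sox13, a transcription factor of interleukin-17-producing lymphocytes, had 9 of 13 higher in BALB/c and 1 in SKG. Between genotypes in iNKT2, none of the 273 was higher in SKG (against 0.252% of all regions) and 13 were lower (4.76%, against 4.73%), so the share of lower calls was close to that of all regions. Of the 13, Sox13 had 7, Maf 3, Blk 2 and Nrp1 1. In iNKT1, none was higher and 1 lower (Il18r1), and 1 was lower (Ltb4r1) in the comparison of both genotype changes. Batf, Stat3, Ahr, Il18r1, Il1rap, Tmem176a and Tmem176b had 0 or 1 region higher in BALB/c iNKT2.

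Across the 10 libraries, start regions of other genes followed the same pattern closely. Of 9915 start regions, the ones most like the Il17a start by Pearson's r of log2 CPM were those of Mapk10 (0.995), Ltbp1 (0.991) and Tbx18 (0.991). Nearest to Il23r were Cdc42bpb (0.987), 4930452B06Rik (0.987) and Gucy1b1 (0.986), and to Ccr6 Cfap74 (0.971), E130208F15Rik (0.968) and Cybrd1 (0.958). For Il1r1 they were Col5a1 (0.993), Npy (0.993) and Fbln1 (0.992), and for Sdc1 a region shared by Acvr1 and Upp2 (0.992), Prickle1 (0.991) and Sestd1 (0.989). At the Il23r, Il1r1 and Sdc1 starts the points fall into an iNKT1 and an iNKT2 cluster. At the Il17a and Ccr6 starts SKG iNKT2 and BALB/c iNKT2 also stood apart from each other. So r reflects such splits between groups, and its sources were not tested further.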

How the data were processed

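ATAC-seq of sorted thymic iNKT cells was analysed from 10 libraries, grouped by the strain and cell population in the labels. The study describes alignment to mm10 with Bowtie 1.0, removal of mitochondrial and duplicate reads, and summits called per replicate with MACS2. These were widened and merged into 1 set, in which transposase insertions were counted. The deposited table's name speaks of normalized values, but its counts are whole numbers with different totals, so they were treated as raw insertion counts. Its regions have a median width of 343 bp, less than the uniform width the study describes, and this difference was not resolved. Depth was 14988590 to 36342635 insertions per library.

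All 94823 regions were tested without a filter in edgeR 4.0.16 (R 4.3.3; TMM factors, quasi-likelihood F test, 1 mean per group over all 10 libraries), with Benjamini-Hochberg adjustment, and a call needed an adjusted p under 0.01 and a change of at least 4-fold. The fit was also run on data simulated from its own model, with changes planted only in regions above the lower quartile of mean CPM. That run is not used as support for any call. The SE after ± a log2 change is the absolute change divided by the square root of the test's F. It is therefore derived and approximate, least exact where counts are near the floor. Gene positions came from GENCODE M21. Where a group held no insertion, 3 insertions over the group served as floor, and with 1 to 3 the ratio has a 95% counting interval, which covers counting error only. The regions named by rule were, for each gene, that at the start, that of highest mean CPM, those of smallest adjusted p between BALB/c subsets and between genotypes in iNKT2 (and in iNKT1 if called), and those called in the difference of both genotype changes. For Rora the 5 called regions of largest BALB/c subset change in each direction were added. The other named regions were chosen after their values were seen. The member genes and the gene lists were chosen with earlier results of these data known. A gene of the lists is not reported here.

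Same-numbered BALB/c and SKG iNKT2 libraries had deviations that correlated by 0.517, 0.181 and 0.224, so the replicate number was also fitted as a block. Replicates 2 and 3 were not told apart by this, since BALB/c replicate 3 with SKG replicate 2 gave 0.308 and BALB/c replicate 2 with SKG replicate 3 gave 0.201. The libraries numbered 1 gave -0.299 to -0.417 with the others of the other strain. Deviations from a group mean cancel within the group, so these negative values follow largely from the 0.517 and add no separate evidence. Other alternatives were library totals, DESeq2 1.42.0, limma-voom (limma 3.58.1) with and without quantile normalization, a filter, other thresholds and member rules, and leaving out each library. Subtraction of the floors and leaving out both iNKT2 libraries numbered 1 were added after seeing the data.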

Additional observations from a re-analysis of the deposited data

Results flagged for a closer look

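At 2 regions the change from BALB/c to SKG differed between iNKT2 and iNKT1 by a test of the difference itself (edgeR's quasi-likelihood test). At the Rora intron region chr9:69173828-69174448 (r90128) BALB/c iNKT1 had 1.05 and 0.617 CPM and SKG iNKT1 4.05 and 4.62 CPM, while BALB/c iNKT2 had 7.5, 3.78 and 4.53 CPM and SKG iNKT2 5.59, 3.63 and 3.17 CPM, a log2 difference of -2.66 (adjusted p 0.0084).

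Upstream of Sdc1, at chr12:8761198-8761539 (r18759), the libraries had 3.79 and 3.79 CPM in BALB/c iNKT1, 10.3 and 8.28 CPM in SKG iNKT1, 3.45, 3.02 and 3.83 CPM in BALB/c iNKT2 and 1.9, 2.3 and 0.944 CPM in SKG iNKT2, a log2 difference of -2.24 (adjusted p 0.0053). Both calls were lost in the fits without any one of the 4 iNKT1 libraries. Such a fit leaves a group with a single library, and it also made fewer calls of this difference over all regions.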

How the results depend on the processing

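The counts of regions higher in iNKT2 than in iNKT1 ranged from 61 to 69 in BALB/c and from 48 to 62 in SKG when 1 library was left out, and those lower from 4 to 5 and 5 to 5. With quantile normalization the 69 of BALB/c became 46 and the 61 of SKG 34, and with the filter 46 and 39. Over all regions the higher calls went in BALB/c from 14725 to 8787 and 7880, and in SKG from 9654 to 3855 and 6745. Lower calls became 11 in each genotype by adjusted p alone, 10 in BALB/c and 9 in SKG at an adjusted p of 0.05 and 2-fold, and 2 and 3 for regions nearest to a member's start.

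Between genotypes in iNKT1, the 4 higher calls became 0 with quantile normalization, 1 with voom alone, 1 after floor subtraction, 10 at the looser threshold and 2 near member starts, and were 0 to 4 with 1 library left out, 0 without any one iNKT1 library. None was lower (0 to 0). In iNKT2 the 1 higher call became 10 with quantile normalization, 0 with the filter, 7 after floor subtraction, 22 by adjusted p alone, 14 at the looser threshold and 0 near member starts. Over all regions the 239 higher calls became 1207 with quantile normalization, 98 with the filter and 1179 after floor subtraction. The member count was 0 to 2 with 1 library left out, 2 when BALB/c iNKT2 replicate 1 was dropped, and 0 when its replicate 2 or 3 or SKG iNKT2 replicate 3 was. The 2 lower calls became 1 with the filter, 11 and 8 at the other thresholds, and 1 to 2 with 1 library left out, 1 without BALB/c iNKT2 replicate 2 or SKG iNKT2 replicate 1. For the difference of both genotype changes, none was higher (0 to 0), and the 2 lower calls became 1 with library totals, 7 with DESeq2, 0 with quantile normalization, 1 with voom alone, 1 with the filter, 1 after floor subtraction, which was neither of the 2, 5 without both iNKT2 libraries numbered 1, 7 at the looser threshold and 1 near member starts. They were 0 to 4 with 1 library left out: 0 without any iNKT1 library or BALB/c iNKT2 replicate 3, 4 when BALB/c iNKT2 replicate 1 was dropped, and 1 when its replicate 2 or SKG iNKT2 replicate 2 or 3 was. The causes were not tested.

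With the replicate number as a block for the pairing, counts were 69 higher and 4 lower in BALB/c, 64 and 5 in SKG, 4 and 0 between genotypes in iNKT1, 1 and 2 in iNKT2, and 0 and 3 for the difference.

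Library totals moved summed CPM of Rora from 357 to 328 in BALB/c iNKT1, from 448 to 402 in SKG iNKT1 and from 318 to 356 in BALB/c iNKT2, which turned the order of both BALB/c subsets. Il17a moved from 8.09 to 7.27 in SKG iNKT1 and from 68.2 to 76.2 in BALB/c iNKT2, and Il1r1 from 154 to 172 in BALB/c iNKT2. They moved the median log2 change of all regions from 0.06 to 0.34 between BALB/c subsets, from 0.14 to 0.32 between SKG subsets and from 0.01 to -0.12 between iNKT2 genotypes. Of 666 values for 32 named results, 594 kept direction and side of the threshold, 22 passed it newly, 38 lost it and 12 turned, all 12 at uncalled regions. Il17f region r00243, which overlaps Mcm3, was at -0.17 between BALB/c subsets. It turned to 0.10 with library totals, 0.22 with quantile normalization, 0.06 after floor subtraction and 0.00 without both libraries numbered 1. Ccr6 region r38544, which overlaps Mpc1, was at -0.02. It turned to 0.25 with library totals, 0.00 with DESeq2, 0.33 with quantile normalization and 0.12 with the filter. With 1 library left out it was at -0.06 to 0.13 (0.05 for BALB/c iNKT1 replicate 2 and 0.13 for BALB/c iNKT2 replicate 1). It was at 0.20 after floor subtraction and at 0.15 without both libraries numbered 1. Depth limits the iNKT1 values: 23 member regions held 3 or fewer insertions over both BALB/c iNKT1 libraries and 30 over both SKG iNKT1 libraries.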
